A study of Caenorhabditis elegans with 2 samples.

Results

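The cuticle collagen genes of Caenorhabditis elegans were examined for regions recovered with the forkhead transcription factor UNC-130 by chromatin immunoprecipitation and sequencing (ChIP-seq). The members were all protein-coding genes of the WBcel235 annotation whose name starts with col-, 156 genes, and 6 further genes named for the body shape of their mutants, dpy-7, dpy-10, dpy-13, rol-6, sqt-1 and sqt-3. That made 162 of 19985 protein-coding genes. The rule went by name and used no measured value, but it was set with earlier results of these data known. The chromatin came from whole hermaphrodites of strain AGK541, collected as young adults 56 hours after they had been synchronized as starved first-stage (L1) larvae. The 2 biological replicates formed 1 group, with no other condition beside it. In this strain the insertion armSi1 on chromosome II placed UNC-130, fused to green fluorescent protein (GFP), under the promoter of mex-5 with the 3′ UTR of tbb-2, and carried cb-unc-119(+), in a background of unc-119(ed3) III and niDf199 IV. The immunoprecipitation used an antibody against GFP, per one field of the labels, while another field names unc-130.

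Cuticle collagens are small secreted proteins whose triple helix is built from repeats of glycine followed by any pair of residues (Gly-X-Y). The epidermis makes them in bursts at each molt, in the endoplasmic reticulum they are hydroxylated, folded into trimers and exported, and outside the cell they are cut and crosslinked into the annuli, furrows, struts and ridges of the cuticle. Changes in single collagens can shorten the worm (dumpy), twist it (roller) or do both (squat). The mex-5 promoter, which drove the tagged factor here, is known as a promoter of germline expression, and whole worms were used, so the regions below cannot be given to a cell type. Worms without the tag and the control library were not analysed here.

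The translated coding sequence of 161 of the 162 members held at least 10 Gly-X-Y repeats in a row, with a median longest run of 21, so the name rule picked genes of the expected build. The exception was col-17, whose annotated reading frame gave a longest run of 1. Member proteins were 154 to 740 residues long, with a median of 304. The members lay on all 6 nuclear chromosomes, with 42 on chromosome IV, 32 on V, 28 on X, 27 on II, 21 on I and 12 on III. They were shorter than other genes, with a median span of 1220 bp against 2026 bp over all protein-coding genes, and more of them had a single annotated start (86.4% against 73.7%).

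Candidate regions, which hold peaks together with background, were deposited by the authors as 1 list per replicate and 1 for both replicates pooled, with a short list of optimal peaks drawn from the pooled one. The ce11 lists held 1168 optimal peaks, 22106 pooled regions, 21622 regions in replicate 1 and 20625 in replicate 2. The optimal peaks equal the pooled regions with a signal of 53.5 or more. Signal is the authors' own value per region, and its scale is not given in the sources used here, so ranks within a list (rank 1 is the highest signal) stand beside it. A region was given to a gene when its summit, the point of highest signal, lay between 1000 bp upstream and 200 bp downstream of a transcript start, here called the promoter window. The lists carry no read counts, which leaves the sequencing depth unknown. The 95% Wilson intervals below cover counting error over genes only. Members are not replicates of each other, and no test was made across them.

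Few cuticle collagen genes carried an optimal peak at their promoter, and fewer of them than of other genes carried a candidate region of any strength. An optimal summit lay in the window of 5 members, col-2, col-38, col-63, col-71 and col-185, which is 3.09% of members (interval 1.33 to 7.02%) against 5.34% of all protein-coding genes. The share over all genes lies within the interval of the members. Pooled regions were found at 35 members, 21.6% (16 to 28.6%), against 36.4% of all genes. The replicate lists gave lower shares for the collagens too. In replicate 1 the count was 39 members (interval of their share 18.1 to 31.2%), against 35.0% of all genes, and in replicate 2 it was 28 members or 17.3% (12.2 to 23.8%), against 34.2%. Both replicate lists held a summit for 16 members, 9.88% (6.17 to 15.4%), against 22.7% of all genes. Of the 35 members with a pooled summit 5 had an optimal one, 14.3% (6.26 to 29.4%), against 14.7% of the genes with a pooled summit. For a single replicate, its 1168 regions of highest signal took the place of the optimal peaks, among genes with a summit in that replicate's list. This share was then 7.69% of members against 14.8% of genes in replicate 1, and 14.3% against 15.4% in replicate 2. Across the promoter windows, pooled summits numbered 44 in 202.0 kb at members, or 0.218 per kb, against 0.316 per kb at all genes.

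**Figure D1:**
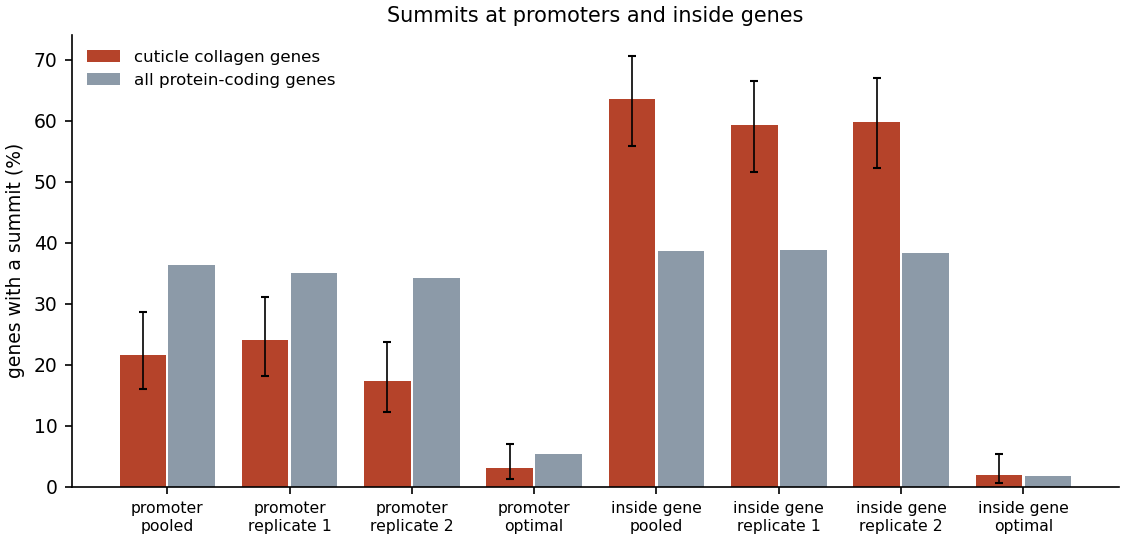
Share of genes (y axis, %) with a summit in the promoter window or inside the gene in each list (x axis); red bars are the 162 cuticle collagen genes with 95% Wilson intervals, grey bars all 19985 protein-coding genes. In the pooled list the collagen share is 21.6% against 36.4% at promoters, and 63.6% against 38.6% inside genes.

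Of the 5 optimal peaks, 3 lay between a collagen gene and a neighbour that starts in the other direction, and in each of these the neighbour's start was the nearer one. The short stretches printed here are from the forward or reverse strand of the ce11 (WBcel235) genome as distributed by RefSeq, shown because they lie in the 3 shared peaks and in the strongest unshared one. Those of col-71, col-2 and col-185 hold the summit, and that of col-38 lies beside it, with its string 35 bp away. The capital in the col-71 stretch marks the summit base, the capitals at col-38 and col-2 mark TTCCCGC, one of the strings bound by E2F-type factors, and those at col-185 mark a match to the B box, the promoter element inside tRNA genes.
col-71 (chrII:3502833-3502862, plus strand): gagttgcatccgcgcTccattgcgaatatg
col-38 (chrII:8569479-8569508, plus strand): tgctgtttgaaTTCCCGCgcctgcgcatca
col-2 (chrIV:10085901-10085930, minus strand): cacatttgaattTTCCCGCtatagcaattg
col-185 (chrX:13511972-13512001, minus strand): agaggtcccggGTTCAATCCccggttcggc
The peak at col-71 (chrII:3502633-3503062) had a pooled signal of 59.9, rank 939, with 23.5 in replicate 1 (rank 1915) and 39.9 in replicate 2 (rank 469). Its summit was 278 bp upstream of col-71 and 120 bp from the start of Y49F6B.2, a gene with no further name in the annotation. At col-2 the pooled signal was 59.1, rank 973, with 23.4 in replicate 1 (rank 1941) and 33.0 in replicate 2 (rank 730), and the region was chrIV:10085701-10086130. This summit was 465 bp from col-2 and 221 bp from ndc-80, which encodes a kinetochore protein that holds microtubules. The peak shared by col-38 and rpl-5, a large-subunit ribosomal protein gene, had a pooled signal of 59.0, rank 978 (chrII:8569310-8569739), 34.4 in replicate 1 (rank 890) and 23.6 in replicate 2 (rank 1495). It was 437 bp upstream of col-38 and 402 bp from rpl-5, inside the noncoding RNA genes F54C9.16 and F54C9.17. The replicates thus ranked col-71 and col-2 higher in replicate 2 and col-38 higher in replicate 1.

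The other 2 optimal peaks lay in no other gene's promoter window, yet each had another annotated gene at its summit. The peak of highest signal in any collagen promoter window was that of col-185 (chrX:13511768-13512197), with a pooled signal of 77.9, rank 543, and 31.4 in replicate 1 (rank 1092) and 47.6 in replicate 2 (rank 292). Its summit was 886 bp upstream of col-185 and inside a tRNA gene (chrX:13511970-13512041), which holds the B-box match printed above. Second was col-63 (chrI:8245390-8245819) with a pooled signal of 70.2, rank 693, and 41.3 in replicate 1 (rank 607) and 30.6 in replicate 2 (rank 857). That summit was 642 bp upstream of col-63, in an exon of the homeobox gene ceh-8 and inside the noncoding RNA gene ZK265.11. So 2 of the 5 members had an optimal peak in no other gene's window, against 41.9% of all genes with an optimal summit, and for the same 2 the collagen start was the nearest, against 69.4% of such genes. A tRNA gene lay within 200 bp of the summit for 1 of the 5, against 4.40%. With 5 peaks these shares allow a wide range, 11.8 to 76.9% for 2 of 5 and 3.62 to 62.4% for 1 of 5.

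The 1168 regions of highest signal in each replicate, as many as there are optimal peaks, gave a shorter and partly different list. Replicate 1 held col-38, col-63 and col-185 among them, 1.85% of members against 5.16% of all genes. Replicate 2 held col-2, col-63, col-71 and col-185, 2.47% of members against 5.26% of all genes. Both thus had col-63 and col-185, the members with an unshared peak.

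Below these 5 the signals at collagen promoters dropped by a wide margin. The next was col-103 (chrIV:763722-764151), with a pooled signal of 32.2, rank 2797, 259 bp upstream of its start, and 16 in replicate 1 (rank 4320) and 10.1 in replicate 2 (rank 10948). No other promoter window held this summit. The summit base is the capital in this stretch of the plus strand, which is built mostly of repeated ct and ca pairs.
col-103 (chrIV:763922-763951, plus strand): ctcactcactcacagTctctctctagatag
The second in this order, col-142, had a pooled signal of 26.8 (rank 3985), but its summit, 908 bp upstream of col-142, lay in an exon of the neighbouring collagen gene col-141. The same held for col-44 (23.9, rank 5077), whose summit, 664 bp upstream, lay in an exon of the collagen gene col-9, though in no other promoter window. There followed col-132 (23.1, rank 5514), col-111 (19.7, rank 7705), col-86 (19.1, rank 8284) and col-129 (18.2, rank 9156), all in no other gene's window. The last 3 of the 10 were col-155 (17.7), col-8 (17.6) and col-39 (17), and each lay in the window of a second gene. These were K03B8.14 for col-155, rfl-1, an enzyme that activates the ubiquitin-like protein NED-8, for col-8, and dph-2, which takes part in making diphthamide on an elongation factor, for col-39, whose summit also lay in an exon of col-79. Among the 10, col-86 had no region in replicate 1, col-155 and col-8 had none in replicate 2, and col-111 had its replicate 2 region outside the window.

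The 35 members with a pooled summit had a median best signal of 16.8, from 11.9 at the lowest to 77.9, against a median of 21.4 over all genes with one. Their median rank was 10838 of 22106, against 6442. In the replicate lists the median ranks were 12161 at members against 6586 at all genes in replicate 1, and 10678 against 6626 in replicate 2. Signals under 20 made up 26 of the 35, and 7 of the 35 were among the 5000 highest regions, against 42.9% of all genes with a pooled summit. Collagen promoter regions were thus lower within the pooled and both replicate lists, as well as rarer. The summits also lay farther out, at a median of 364 bp from the start against 249 bp, with 42.9% within 300 bp against 56.5%. The collagen start was the nearest protein-coding start for 28 of the 35, and the same share over all genes with a pooled summit was not computed.

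**Figure D2:**
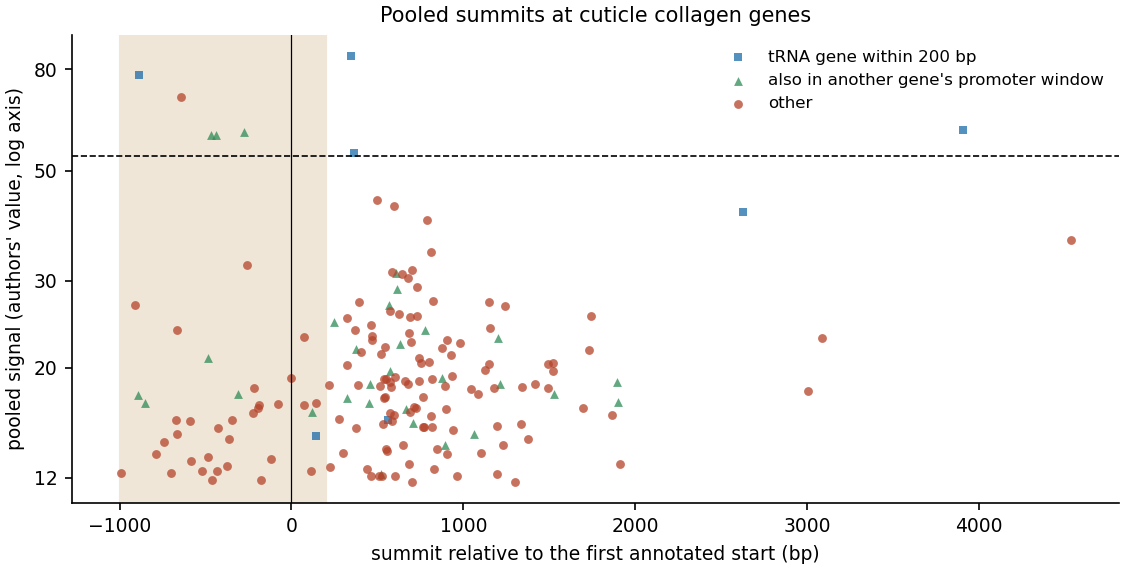
Pooled summits at the cuticle collagen genes by distance from the first annotated start (x axis, bp) and authors' pooled signal (y axis, log scale); squares have a tRNA gene within 200 bp, triangles also lie in another gene's promoter window, the band is the promoter window and the dashed line the lowest optimal signal, 53.5. The axis ends at 5000 bp, and 4 of 183 summits beyond it are left off. Most points lie inside the genes, to the right of the band, and those above the line are the 5 promoter peaks and 3 summits inside genes.

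The 6 members named for body shape had no pooled region at their promoters, where 21.6% of all members and 36.4% of all genes had one. So few genes cannot show a lower share. No list held a summit in the promoter window of dpy-7 or dpy-10, collagens of the annular furrows, of dpy-13, or of rol-6 and sqt-1, in which mutations twist the body. For sqt-3, needed for body shape, a region was in each replicate list but not in the pooled list, with a signal of 11.9 in replicate 1 (rank 8563, 244 bp upstream) and 9.68 in replicate 2 (rank 11953, 25 bp upstream). The adult-stage collagen col-19 had a promoter region in replicate 1 only (15.8, rank 4440, 540 bp upstream). In replicate 2 only, col-99, a transmembrane collagen, had one (9.39, rank 12778, 66 bp upstream).

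Many collagen promoters were in the list of 1 replicate only. A promoter summit was in some list for 57 members and in none for 105. Replicate 1 alone had one for 23 members and replicate 2 alone for 12, which is 68.6% of the 51 members found in either replicate, against 51.1% of all genes found in either, while 15 members had one in both and in the pooled list. Another 6 had one in the pooled list only, col-64, col-85, col-98, col-121, col-133 and col-187, and 22 had one in a replicate but not in the pooled list. Among these counts, only those in either replicate and in 1 alone were also computed over all genes. Over the 16 members found in both replicates the rank correlation (Spearman's rho) of their best signals was 0.66, against 0.69 over 4543 genes. Found in both means a summit in the window in each list, and the regions need not overlap. At col-20 the best summit was 22 bp downstream of the start in replicate 1 and 752 bp upstream in replicate 2. The replicates share their strain and control, and a correlation over genes describes these lists only.

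**Figure D3:**
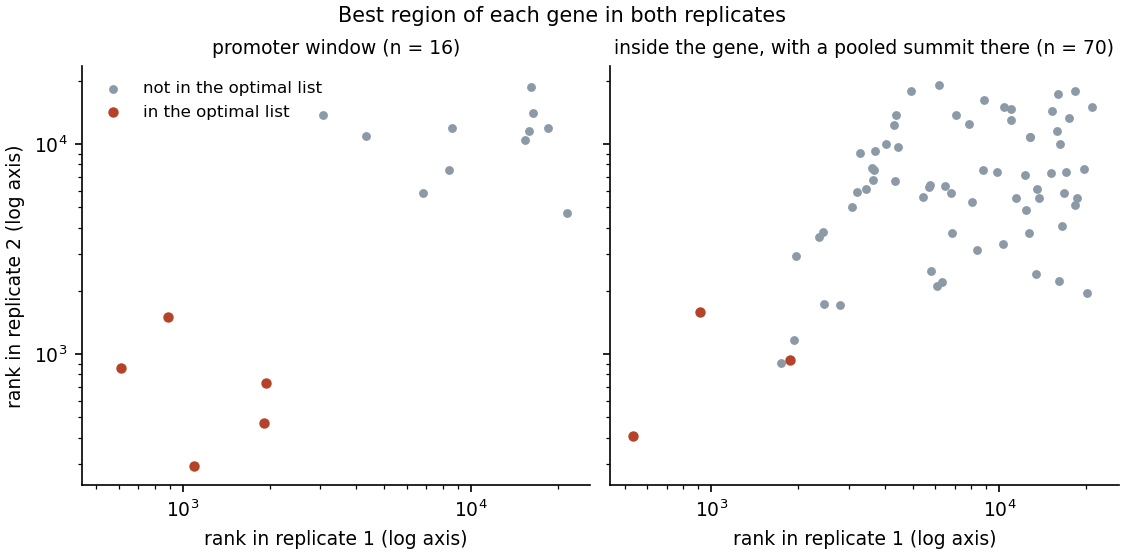
Rank of each cuticle collagen gene's best region in replicate 1 (x axis, log scale) and replicate 2 (y axis, log scale), for regions in the promoter window on the left and inside the gene on the right; red points are genes in the optimal list. In the promoter panel the 5 optimal genes have the lowest ranks in both replicates, and rho is 0.66 over all 16 and 0.10 over the 11 others. The regions of a gene in the replicates need not overlap.

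The collagen share was lower than that of all genes on each chromosome, among genes with a single start, and both with and without a divergent neighbour. On chromosome I it was 3 of 21 members, 14.3% (4.98 to 34.6%), against 49.7% of all genes there. The shares were 29.6% of members against 37.5% of genes on II, 33.3% against 50.3% on III, 28.6% against 38.5% on IV, 12.5% against 26.0% on V and 14.3% against 24.3% on X. The intervals of II, III, IV, V and X hold the share of all genes, and that of I does not. Among genes with 1 annotated start, 29 of 140 members (20.7%) had a pooled summit, against 31.0%. A divergent neighbour, one whose start lies within 1000 bp on the other strand, was present for 25 members, 15.4% against 18.7% of all genes. With such a neighbour 5 of 25 members had a pooled summit (interval 8.86 to 39.1%), against 52.1% of genes with one, and without it 30 of 137, 21.9% against 32.9%. Optimal summits were at 3 of the 25 (4.17 to 30%), against 14.0%, and at 2 of the 137, 1.46% against 3.36%. Thus the 3 shared optimal peaks, in front of ndc-80, rpl-5 and Y49F6B.2, were within a group of 25 genes.

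**Figure D4:**
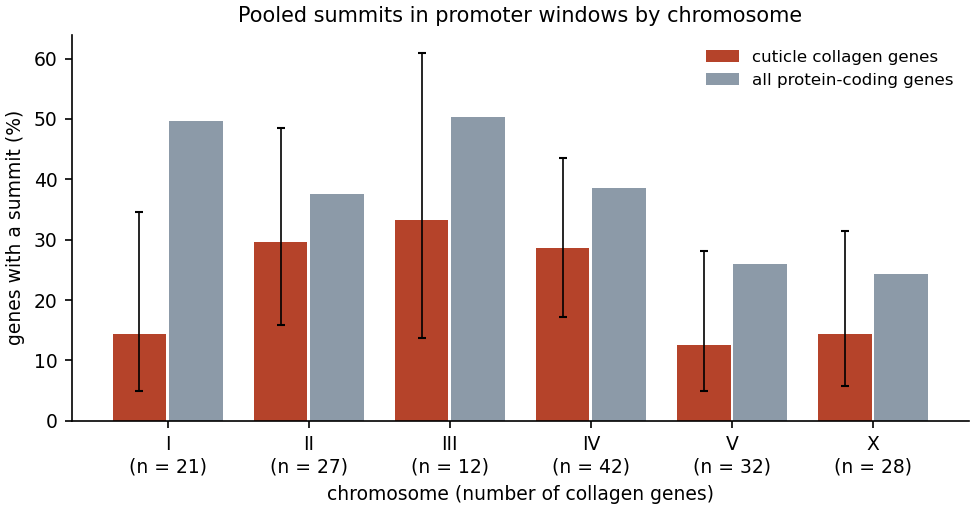
Share of genes (y axis, %) with a pooled summit in the promoter window on each nuclear chromosome (x axis); red bars are cuticle collagen genes with 95% Wilson intervals, grey bars all protein-coding genes. The collagen share is below the share of all genes on each of the 6 chromosomes, by the largest margin on I (14.3% against 49.7%).

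Collagens form a family of similar sequences, and how the authors' alignment treated reads with several matches is not given in the sources used here. Promoter windows of members were as distinct as those of other genes, with a median of 99.8% of 25-base words found once in the genome in both sets, and a similar GC content (35.7% against 34.9%). Members with a pooled summit and those without one had medians of 99.8% and 99.7% unique words. Unique words, GC content and overlaps were read in the window of each gene's first annotated start. Such windows of 8 members overlapped that of another member, and none of the 8 had a pooled summit. Among all members 21.6% had one, and 8 are too few to show a lower share. No pooled summit lay in the windows of 2 members at once.

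Inside the genes the collagens had the higher share, in a count added after the data were seen. A pooled summit lay between the start and the end of 103 of the 162 members, 63.6% (55.9 to 70.6%), against 38.6% of all protein-coding genes. The overlapping members col-159 and col-160 were credited with the same region (chrV:13201423-13201852). Replicate 1 alone gave 96 members or 59.3% against 38.8%, replicate 2 alone 97 members or 59.9% against 38.3%, and both together 76 members or 46.9% against 24.5%. Per kb of gene span there were 0.607 pooled summits at members and 0.219 at all genes. Of the 103 members, 76 had no pooled summit in the promoter window. Either place held one for 111 members and neither for 51. These 3 counts were not computed over all genes, so they cannot be called high or low. The optimal list held 3 members inside the gene, 1.85% (0.632 to 5.30%), against 1.70%, so the higher share belonged to regions below that list. Signals inside the genes had a median of 19.3 (11.8 to 85.1), against 18.1 over all genes, and a median rank of 8028 against 9250.

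These summits lay mostly in exons, and collagen exons carry long runs of glycine (GGN) and proline (CCN) codons, which are rich in G and C. An exon held 92 of the 103 (89.3%), against 57.7% of such summits in all genes, and an intron 11. The part of the gene span that is exon was not computed for members or for all genes. These shares therefore cannot be read as a preference for exons. The median position was 60.0% of the way along the gene (quartiles 48.4 and 73.4%), against a median of 53.5% over all genes with a summit inside. The stretches here, on the coding strand of 2 of the strongest exonic summits, show glycine codons in capitals.
col-133 (chrIV:14098740-14098769, minus strand): gcaccaGGAgcaccaGGAcaaGGAtccGGA
dpy-7 (chrX:7536989-7537018, minus strand): GGAatcaaaGGAccaccaGGAgatgattcg
Replicate values here and below, for summits inside a gene, are those of each replicate's best summit in that gene. This need not be the same region as the pooled one. At col-133 the pooled signal was 42.5 (rank 1757), with 24.6 in replicate 1 (rank 1751) and 29.8 in replicate 2 (rank 910). The dpy-7 region had 39.8 (rank 1959), with 23.2 in replicate 1 (rank 1969) and 17.2 in replicate 2 (rank 2946), although no list held a summit at the promoter of this gene. The highest exonic summit of all was at col-95 (43.7, rank 1683), with 23.4 in replicate 1 (rank 1931) and 26.6 in replicate 2 (rank 1166). In the 10 codons around the col-95 summit there was no glycine codon. All 3 pooled summits lay close to the middle of their genes, at 58.0%, 59.4% and 45.4% of the span. Both replicates held a summit somewhere inside each of these genes.

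Other well-known collagens also had regions inside the gene, at lower signals. They were found at col-19 (22.6, rank 5753; 18.1 in replicate 1 and 10.9 in replicate 2) and at dpy-13 (19.7, rank 7710; 12.2 in replicate 1 and 13.5 in replicate 2), where the summit also lay in the promoter window of zipt-2.2. For sqt-1 the pooled signal was 18.5, with a region in replicate 2 only (14.3), and for dpy-10 it was 14.4, with a region in replicate 1 only (10.5). The pooled list held none inside rol-6 or sqt-3. Since sqt-3 has 2 annotated starts, its replicate summits given above lay in its own exons. The ranks of members in the replicates were loosely related inside genes, with a rho of 0.35 over 76 members against 0.43 over 4900 genes.

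Members differ from other genes in base composition, gene length and repeated sequence, and the part of these in the result was not tested. The 201 bp around the summit inside a collagen gene had a median GC content of 58.2%, against 36.8% for summits inside all genes, and it was 50% or more for 86 of the 103 (83.5% against 11.5%). Summits in collagen promoter windows had 40.8%. Coding sequence held 55.1% GC in members and 42.5% in all genes, and members with a region inside (55.4%) differed little from those without one (55.1%). Among genes with a coding GC content of 50% or more, 89 of 138 members (64.5%) had a pooled summit inside, against 51.4%. Among genes no longer than the median of 2026 bp it was 87 of 141 (61.7%) against 23.1%, so short genes as a whole had a summit inside less often than the 38.6% of all genes. Members with a summit inside and those without one had median lengths of 1266 and 1170 bp. Genes that met both conditions had one in 76 of 124 members, 61.3% (52.5 to 69.4%), against 37.4%, so the members' share was higher within this class as well. Unique 25-base words made up 97.0% of the gene in the median member with a region and 70.9% in the median member without one, against 99.6% over all genes. The median member without a region thus shared more of its sequence with other loci.

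**Figure D5:**
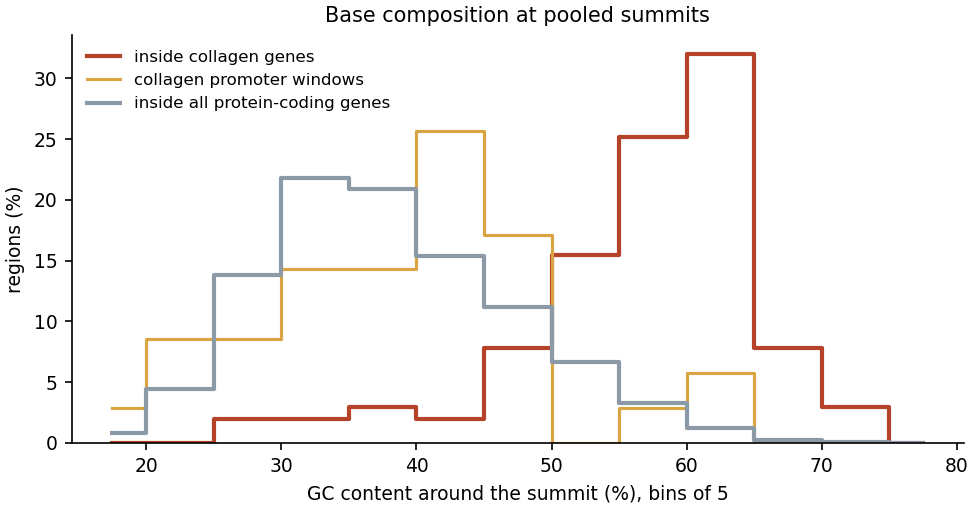
Distribution of the GC content (x axis, %, bins of 5) of the 201 bp around each gene's best pooled summit, as a share of regions (y axis, %); red is inside cuticle collagen genes (n = 103), orange collagen promoter windows (n = 35) and grey inside all protein-coding genes. Summits inside collagen genes centre at a median of 58.2% GC, against 36.8% inside all genes.

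The 3 optimal peaks inside members were all intronic and all at tRNA genes. The highest signal at any collagen gene, 85.1 (rank 448), was in an intron of col-85, with 43.6 in replicate 1 (rank 536) and 42.1 in replicate 2 (rank 409), and its summit was inside a tRNA gene (chrII:12494741-12494814). In col-99 the signal was 60.5 (rank 918), with 34.1 in replicate 1 (rank 916) and 23 in replicate 2 (rank 1582), again inside a tRNA gene (chrIV:143982-144054). The summit in col-54 (54.2, rank 1131; 23.8 in replicate 1 and 29.5 in replicate 2) lay 11 bp from a tRNA gene. A tRNA gene was within 200 bp of the optimal summit in 3 of 3 members (43.9 to 100%), against 20.4% of genes with an optimal summit inside. Together with col-185, 4 of the 8 members with an optimal summit at the promoter or inside thus had it at a tRNA gene. Over all genes the share was 4.40% for optimal summits at promoters and 20.4% for those inside. A combined share over all genes was not computed, and 8 members are too few to call this a trait of collagens.

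Genes that act with the cuticle collagens were read from 5 lists, which held 3 genes with an optimal promoter summit in all, 1 for collagen modification and 2 for its folding and export. A share over the 5 lists together was not computed. The other cuticle collagens, such as bli-1 and dpy-17, had a pooled promoter summit at 5 of 15 genes (33.3%, against 36.4% of all genes) and an optimal one at none (against 5.34%). Their highest were dpy-14 (32.9, rank 2710) and bli-6 (27.0, rank 3930). The 4 collagens outside the cuticle had a pooled summit at let-2 (23.4), a basement membrane collagen IV chain, and at cle-1 (17.4), and no optimal one. All genes outside the members with at least 10 Gly-X-Y repeats in a row, several of the above among them, numbered 41, with a pooled promoter summit at 13 and an optimal one at 0. Regulators of epidermal transcription and molting had a pooled summit at 5 of 17 (29.4% against 36.4%) and none in the optimal list. Among these 5 were nhr-23, a nuclear receptor that drives molting (23.1, rank 5511), and grh-1, a Grainyhead factor (19.5, rank 7866).

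Genes for modifying collagen had a pooled summit at 11 of 20 (55.0% against 36.4%) and an optimal one at 1 of 20 (5.00% against 5.34% of all genes). This was dpy-11, which encodes a thioredoxin-like protein needed for body shape. Its peak (chrV:6515037-6515466) had a pooled signal of 73.1 (rank 622), 12 bp upstream of the start, with 38.3 in replicate 1 (rank 717) and 29.6 in replicate 2 (rank 926). The protein disulfide isomerase gene pdi-6 (49.4, rank 1357) was below the lowest optimal signal. In the list for folding in the endoplasmic reticulum and export from it, 11 of 13 genes (84.6%) had a pooled summit and 2 (15.4%) an optimal one, against 36.4% and 5.34% of all genes. These 2 were hsp-4, a BiP chaperone (70.6, rank 683, 613 bp upstream; 42.4 in replicate 1 and 24.5 in replicate 2), and sec-12, which starts COPII coat assembly (58.8, rank 982, 140 bp upstream; 34.7 in replicate 1 and 24.0 in replicate 2). Nearest below the lowest optimal signal were sec-31 (52.1, rank 1224), rab-11.1 (47.3), sec-24.1 (47) and sec-24.2 (46.3), of which the sec genes encode COPII coat proteins. The other genes of this list with a pooled summit were lower, at hsp-3 (37.1), sar-1 (31), sec-23 (25.8), sec-16A.1 (15.2) and tfg-1 (12.8). COPII genes were thus spread over a wide range of signals. The summit of sec-31 was 900 bp upstream and also in the window of cbd-1, that of sec-24.2 also in the window of ccr-4, and 5 of the 11 genes of this list shared their region with another gene. Export serves all secretory cells and not collagen alone, and the lists were written with earlier results of these data known.

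Short strings were counted on both strands in the 201 bp around the best pooled promoter summit of the 35 members. The forkhead consensus GTAAACA was present in 1, that of col-87, 7 bp from the summit (2.86% against 2.90% of all pooled promoter summits). The GATA string TGATAA, bound by epidermal and gut regulators, was in 7 of the 35, against 15.6%. An E2F-type string (TTCCCGC or else TTCGCGC or else TTGCCGC or else TTGGCGC, a region counted once) was in 4, at col-2, col-38, col-63 and col-98 (11.4% against 11.8%). Thus 3 of the 5 optimal collagen peaks held one, against 23.4% of all nuclear optimal peaks. The B box (GTTCAANNC or else GTTCGANNC, with N for any base), added after the data were seen, was in 1, that of col-185 (2.86% against 4.85%). These letters describe the windows and do not show binding by any factor.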

How the data were processed

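ChIP-seq of UNC-130::GFP was deposited for 2 biological replicates, numbered by the labels, which name a separate worm sample for each. The authors deposited, per the listings with the samples, candidate regions of each replicate and of both pooled, meant for the irreproducible discovery rate (IDR) procedure, and optimal IDR peaks, on ce10 and ce11. The signal of each region and its summit, an offset from the region's start, are the deposited values. For aligner, peak caller, versions and IDR cutoff, details were not given in the sources used here. Alignments, the control and the ce10 lists were not analysed here. Columns without a sample or pool numbered 0.

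Summits of the ce11 lists were placed with the WBcel235 annotation (Ensembl release 115) and the RefSeq copy of the same genome, using starts of protein-coding transcripts. The best region of a gene was that of highest signal, and every gene whose window held a summit was credited. Coordinates are 1-based. Noncoding genes were sought within 200 bp of a summit. Python 3.11.15, pandas 2.3.3, numpy 2.4.6, scipy 1.17.1 and Biopython 1.88 were used, and assignment was tested on simulated regions.

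No hypothesis test was made: shares are set beside those of all protein-coding genes, with 95% Wilson intervals. Members and lists were chosen with earlier results of these data known. Genes named were all members with an optimal promoter summit, dpy-7, dpy-10, dpy-13, rol-6, sqt-1, sqt-3, col-19 and col-99, the 10 next members by pooled signal, the genes that share their regions, and up to 4 genes per list with an optimal summit. Other list genes, members named for a summit inside the gene or for a string, and the tRNA and noncoding genes at summits were chosen after their values were seen. Symbols absent from the annotation were ram-4, elt-5, pqn-47 and sec-13.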

Additional observations from a re-analysis of the deposited data

How the results depend on the processing

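The number of members with an optimal promoter summit, 5, was 3 with a window of 500 bp upstream, 1 (col-185) among the 584 optimal peaks of highest signal, 2 (col-63 and col-185) when a summit was given to the nearest start only, and 3 to 4 from the best regions of a single replicate. It was 4 to 7 under the other alternatives. For pooled summits the 35 members became 23 with the 500 bp window (28.9% of all genes) and 28 to 51 otherwise. At 2000 bp upstream the 51 members stood against 45.6% of all genes. Members with an unshared optimal peak, 2, numbered 0 with the 500 bp window, 1 in the stricter list, 4 when any overlap of region and window counted, and 1 without optimal summits near a tRNA gene. The share of members with a pooled region that had an optimal one, 14.3% (14.7% of all genes), was 2.86% in the stricter list (8.17%), 3.09% with all members as the denominator (5.34%), 6.90% with the nearest start only (12.1%) and 7.69 to 14.3% from single replicates (14.8 to 15.4%). List genes with an optimal summit, 3, were 0 in the stricter list and 1 to 5 from single replicates. Members with a summit inside the gene numbered 96 to 103. The cause of each change was not tested beyond what its construction sets.

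No paired analysis was possible because there was 1 group. Limits are that depth, peak caller and scale of the signal are unknown, that 2 replicates give a poor estimate of the spread for a gene, that windows can credit a neighbour's region to a collagen, and that the members are a family with shared sequence.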
